A study of Mus musculus with 24 samples.

Results

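The 10 genes described here encode FOXO transcription factors (Foxo1, Foxo3), p53-induced nuclear proteins (Trp53inp1, Trp53inp2), a sestrin (Sesn1) and proteins of autophagy (Ulk1, Map1lc3a, Map1lc3b, Gabarapl1, Sqstm1). They were taken by symbol from the deposited table, where each of the 10 has 1 row among 16233 genes. The samples were inguinal white fat, which lies under the skin of the groin, from male C57BL6 mice aged 10 to 11 weeks. RUN mice had done 1 hour of exercise and SED mice had spent a sham hour on an artificial treadmill. The labels give sampling at ZT15, early in the active phase, or at ZT3, early in the rest phase, ZT being the hours since the lights came on. There were 6 libraries each of ZT15 RUN, ZT15 SED, ZT3 RUN and ZT3 SED, and no allele or drug is given for any group. The hour after the bout at which these libraries were taken is not given in the labels. The gene names were put together with earlier results of these libraries in view, among them the difference of Trp53inp2 between the times in sedentary mice, so that difference is given as a description without a test. For the other differences the adjusted p-values are not independent evidence, since the list was chosen on the same libraries.

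FOXO factors are held out of the nucleus when insulin activates AKT, and in fasting they switch on genes of stress resistance, fuel use and autophagy. Autophagy is the enclosure of cytoplasm in a double membrane that fuses with lysosomes. It is started by the ULK1 kinase, carried by ubiquitin-like ATG8 proteins such as LC3 and GABARAPL1 that are attached to membrane lipid, and loaded by receptors such as p62. In adipose tissue the pathway is known for its roles in fat cell formation and in the turnover of mitochondria. Transcript levels of these genes do not measure the rate of autophagy itself.

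Promoter sequences are shown for Trp53inp2 and Foxo1, the members that passed the test between times in exercised mice, and for Sesn1, the only member whose window held the FOXO element. They run from 250 bases before to 50 bases after the annotated start. They come from a set of promoters taken from RefSeq (GRCm38.p6). In that set 8 of the 10 members had an entry, with 9 windows in all. The Trp53inp2 window lies at chr2:155381606-155381905 on the plus strand, the Foxo1 window at chr3:52268087-52268386 on the plus strand and the first Sesn1 window at chr10:41810324-41810623 on the plus strand. Capitals mark a motif match.
Trp53inp2: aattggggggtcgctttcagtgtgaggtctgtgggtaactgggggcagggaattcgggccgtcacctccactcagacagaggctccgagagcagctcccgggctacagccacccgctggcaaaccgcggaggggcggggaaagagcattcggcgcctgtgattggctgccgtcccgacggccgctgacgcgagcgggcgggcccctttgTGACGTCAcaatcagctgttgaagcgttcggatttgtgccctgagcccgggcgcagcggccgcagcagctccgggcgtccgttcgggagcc
Foxo1: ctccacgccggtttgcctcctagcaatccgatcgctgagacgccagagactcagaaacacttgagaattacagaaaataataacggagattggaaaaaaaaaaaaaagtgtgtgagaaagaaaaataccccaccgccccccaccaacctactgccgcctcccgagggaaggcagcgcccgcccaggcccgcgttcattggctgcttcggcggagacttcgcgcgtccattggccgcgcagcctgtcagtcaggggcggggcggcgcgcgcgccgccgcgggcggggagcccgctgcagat
Sesn1: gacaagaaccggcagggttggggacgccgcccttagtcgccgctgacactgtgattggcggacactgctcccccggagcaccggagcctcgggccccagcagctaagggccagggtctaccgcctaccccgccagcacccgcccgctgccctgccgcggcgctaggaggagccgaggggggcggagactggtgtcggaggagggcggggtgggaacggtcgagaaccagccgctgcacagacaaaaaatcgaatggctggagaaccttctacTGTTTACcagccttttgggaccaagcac
The motifs searched on both strands were the FOXO element GTAAACA, the E-box CACGTG, the D-box TTANGTAA and the glucocorticoid receptor motif AGAACA. The cAMP response element TGACGTCA was added after the Trp53inp2 sequence had been read. The FOXO element was found in 1 of the 9 windows, on the minus strand of Sesn1 from base 23 after the start, and in 3.65% of all 32851 promoters of this length. The cAMP response element was found in 1 of the 9 windows, that of Trp53inp2, from base -41, and in 1.79% of all promoters. The E-box (7.15% of all promoters), the D-box (2.32%) and the glucocorticoid receptor motif (19.0%) had 0 matches in the 9 windows. A match is a description of the letters only, and a window without one says nothing about a factor.

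The libraries were made from total RNA, and a value below is a normalized read count per M (mega) reads. The depth was 18.5 to 34.7 M reads per library, and every member had at least 703 reads in every library. The adipocyte hormone Adipoq was at 1101 or more in each library. Other tissues were present in unequal amounts. The 10 lymphocyte markers summed to 5.16 to 12.8 in ZT15 RUN, 9.02 to 854 in ZT15 SED, 7.19 to 1263 in ZT3 RUN and 9.43 to 13.3 in ZT3 SED. The 10 skeletal muscle markers summed to 162 to 43012 in ZT15 RUN, 22.3 to 39014 in ZT15 SED, 366 to 11690.3 in ZT3 RUN and 45.8 to 16924 in ZT3 SED. In each group 0 of these markers were at 0 in all libraries. The B cell gene Cd79a exceeded 5 in 3 libraries, with 99.2 reads per M reads for ZT3_RUN_4, 54.6 for ZT15_SED_5 and 14.1 for ZT15_SED_3, and the differences that moved most without these 3 libraries are given both ways. Adipoq was lowest in ZT3_RUN_4 at 1101 and in ZT15_SED_5 at 1223, against 1928 in the next library, ZT15_RUN_6. ZT15_SED_3 had Adipoq at 2923. In bulk tissue fewer cells of a type and less RNA per cell cannot be told apart. The labels do not say that each library is a separate mouse, so p-values measure the spread between libraries.

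The comparison of times in exercised mice gave the most calls. There 2 of the 10 genes rose at ZT15, Trp53inp2 and Foxo1, by limma with adjusted p under 0.05 over all genes, against 4.19% of all genes called in that comparison, 2.56% as higher and 1.63% as lower. Among the 9 genes other than Trp53inp2, 1 passed there. An unadjusted p under 0.05 was found for 3 of these 9, against 20.8% of all genes. In sedentary mice 0 of the 9 genes other than Trp53inp2 passed, against 1.18% of all genes, 0.616% as higher and 0.561% as lower. Of these 9, 2 had an unadjusted p under 0.05, against 12.1% of all genes. Exercise called 0 of the 9 genes other than Trp53inp2 at ZT15 (0.641% of all genes, 0.481% as higher and 0.160% as lower). It called 0 of the 9 at ZT3 (0% of all genes). At an unadjusted p under 0.05 there were 2 of the 9 at ZT15, against 12.7% of all genes, and 1 at ZT3, against 2.27%. The difference between the exercise effects, ZT15 minus ZT3, called 0 of the 9 genes other than Trp53inp2 (0% of all genes). Of them, 3 had an unadjusted p under 0.05, against 7.84% of all genes. The exercise effect averaged over both times called 0 of the 9 (0.142% of all genes, 0.123% as higher and 0.0185% as lower). At an unadjusted p under 0.05 it had 2 of the 9, against 7.74% of all genes. edgeR on recovered reads gave 0, and DESeq2 gave 0, for each of these 4 comparisons with exercise. The median log2 difference of the 10 genes was 0.27 between times in RUN and 0.09 in SED, 0.14 for exercise at ZT15 and -0.04 at ZT3, while the median of all genes was within 0.02 of 0 in each.

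Markers of cell types moved in the same comparison, with 0 calls in each list. Between times in exercised mice the adipocyte markers were 8 of 8 above 0 (median log2 difference 0.26) and the brown or beige adipocyte markers 6 of 6 (1.23). The macrophage markers were 6 of 6 below 0 (-0.58), the lymphocyte markers 10 of 10 (-1.13) and the skeletal muscle markers 10 of 10 (-0.46). Schwann cell and nerve markers were 6 of 6 above 0 (0.20), endothelial markers 3 of 5 (0.02) and fibroblast markers 2 of 6 (-0.05). The adipocyte markers summed to 18164 to 27513 in ZT15 RUN and 9588 to 23691 in ZT3 RUN, the brown or beige markers to 104 to 1649.7 and 59.4 to 286, and the macrophage markers to 501 to 1555 and 987 to 1756 in the same order. Among the brown or beige markers, Ucp1 had a median of 16.1 in ZT15 RUN and 17.4 in ZT3 RUN. It was at 532 in ZT15_RUN_1 and 526 in ZT15_RUN_6. The ranges of the sums overlapped for each list, and the part of these cells in the members' differences was not tested.

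Trp53inp2 (ENSMUSG00000038375) encodes a protein that leaves the nucleus for autophagosomes and binds ATG8 proteins, and that restrains fat cell formation. Its level was 463 at the lowest, 503 at the median and 587 at the highest in ZT15 RUN, and 117, 184 and 232 in ZT3 RUN. All 6 exercised libraries at ZT15 lay above all 6 at ZT3. Such a gap between groups in either direction was found in 2.27% of all genes. The log2 difference was 1.54 ± 0.17 (SE), or 2.91-fold (limma adjusted p = 1.539e-05). In sedentary mice the level was 339, 513 and 702 in ZT15 SED and 145, 215 and 238 in ZT3 SED, again without overlap, as in 2.51% of all genes. That difference was 1.25 ± 0.17, or 2.38-fold. The time difference in RUN minus that in SED was 0.29 ± 0.24, and 0.06 without the libraries high in Cd79a, and is given without a test because it holds the sedentary values that chose the gene. With the levels as mean ± SD, ZT15 RUN stood at 513 ± 43.9 and ZT15 SED at 497 ± 131, with ZT3 RUN at 179.9 ± 45.6 and ZT3 SED at 205 ± 34.6 (n = 6 each). The groups of each time overlapped with one another. Exercise differed by 0.08 ± 0.17 at ZT15 and by -0.21 ± 0.17 at ZT3. Both are given without a test because they hold the sedentary values that chose the gene. The difference at ZT3 was -0.09 without the libraries high in Cd79a. The time difference in exercised mice stayed between 1.43 and 1.62 without any single library, and was 1.43 without the libraries high in Cd79a. The titles number the libraries, and each run of 8 numbers holds 2 libraries per group. Within these runs it was 1.84, 1.14 and 1.65. ZT15 SED had the widest range, from ZT15_SED_5 to ZT15_SED_6, and ZT15_SED_5 is one of the libraries high in Cd79a.

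**Figure D1:**
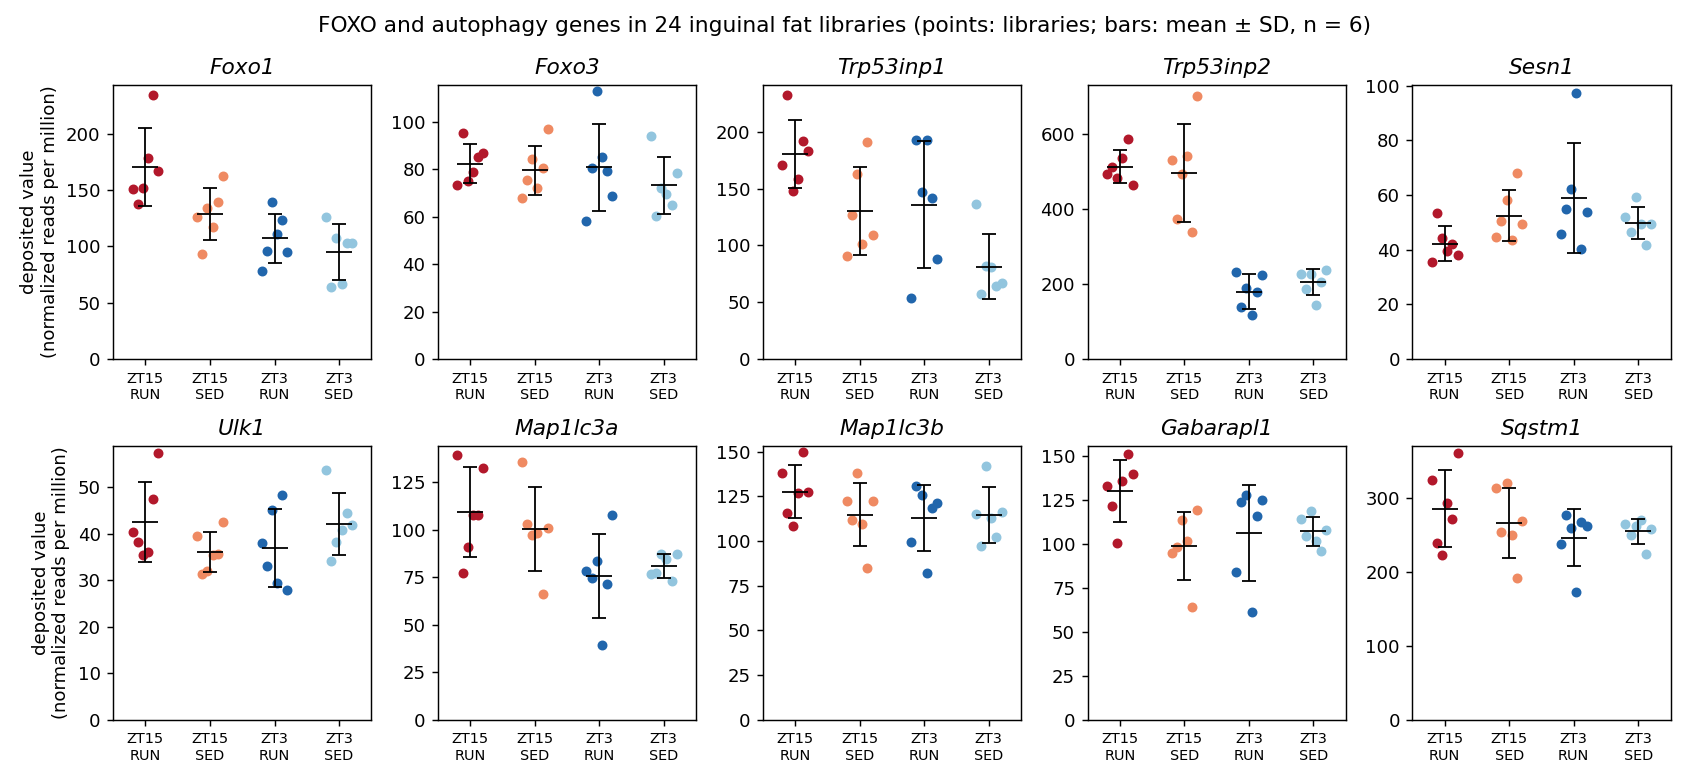
Normalized reads per M reads (y axis, from 0) of each gene in each library by group (x axis), with bars for mean ± SD of 6 libraries. Trp53inp2 sits between 339 and 702 in the ZT15 libraries and between 117 and 238 in the ZT3 libraries, and the other genes overlap between times.

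Foxo1 (ENSMUSG00000044167), the main FOXO factor of insulin signalling in fat, was highest in exercised mice at ZT15. Its level was 138 at the lowest, 159 at the median and 235 at the highest in ZT15 RUN, and 78.5, 103 and 139 in ZT3 RUN. Of the 6 exercised libraries at ZT15, 5 lay above every exercised library at ZT3, and the groups overlapped. Foxo1 rose between times in exercised mice by 0.66 ± 0.17, or 1.59-fold (limma adjusted p = 0.0305). This call was lost without ZT15_RUN_4 (0.0686), ZT15_RUN_5 (0.0892), ZT15_RUN_6 (0.0611), ZT3_RUN_1 (0.0738), ZT3_RUN_2 (0.0619) or ZT3_RUN_6 (0.0542), each an adjusted p from limma. It was also lost with quantile normalization and with only the 2 groups in the fit. Without the libraries high in Cd79a the difference was 0.68 (limma adjusted p = 0.0482). It was 0.75, 0.73 and 0.51 within the runs of title numbers.

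In sedentary mice Foxo1 was at 92.8, 130.2 and 162 in ZT15 SED and at 63.7, 103 and 126 in ZT3 SED. The sedentary groups overlapped, with a difference of 0.46 ± 0.17 (limma adjusted p = 0.241). The time difference in RUN minus that in SED was 0.21 ± 0.24 (limma adjusted p = 0.775), so a rise particular to exercised mice is not shown. The exercise difference was 0.40 ± 0.17 at ZT15 (limma adjusted p = 0.332) and 0.19 ± 0.17 at ZT3 (limma adjusted p = 0.989). All 6 RUN libraries at ZT15 were above the SED mean there, and 4 of 6 were at ZT3. As mean ± SD the order was 170.0 ± 34.6 in ZT15 RUN, 129 ± 23.3 in ZT15 SED, 107 ± 21.9 in ZT3 RUN and 94.9 ± 24.6 in ZT3 SED (n = 6 each), and neighbours in this order overlapped.

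Foxo3 (ENSMUSG00000048756), a second FOXO factor with many of the same targets, changed little. It averaged 82.3 ± 8.20 in ZT15 RUN, 79.5 ± 10.4 in ZT15 SED, 80.7 ± 18.4 in ZT3 RUN and 73.2 ± 11.9 in ZT3 SED (SD, n = 6 each). Its 4 group differences between times and treatments lay between 0.05 and 0.13 on the log2 scale, with 0 past the threshold. ZT3_RUN_3 was its highest library at 113 and ZT3_RUN_1 its lowest at 58.3, so the exercised group at ZT3 spanned the levels of all 24 libraries.

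Trp53inp1 (ENSMUSG00000028211), a p53 target that promotes cell death and autophagy under stress, was the member with the largest difference after exercise averaged over both times. In ZT15 RUN its level was 148 at the lowest, 177 at the median and 232 at the highest, and in ZT15 SED it was 91.0, 118 and 191. In ZT3 RUN it was 54.0, 144 and 193, and in ZT3 SED it was 56.9, 74.1 and 136. The treatment groups overlapped at both times, although all 6 RUN libraries at ZT15 and 5 of 6 at ZT3 were above the SED mean of their time. Exercise differed by 0.50 ± 0.26 at ZT15 (limma adjusted p = 0.438) and by 0.67 ± 0.26 at ZT3 (limma adjusted p = 0.989). The average over both times was 0.59 ± 0.19, with 10 of 12 RUN libraries above the SED mean, and did not pass (limma adjusted p = 0.232). Without ZT3_RUN_1 that average was 0.70 (limma adjusted p = 0.0380). ZT3_RUN_4 and ZT15_SED_5, both high in Cd79a, had the highest Trp53inp1 of their groups. The exercise difference without the libraries high in Cd79a was 0.74 at ZT15 and 0.54 at ZT3, and neither passed.

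At ZT3 the groups crossed in a pair of libraries. ZT3_RUN_1 had the lowest Trp53inp1 of the exercised group and ZT3_SED_1 the highest of the sedentary group. Both lie in the run of title numbers 9 to 16, where the exercise difference at ZT3 was -0.35, against 1.32 and 1.04 in the other runs, so the relation did not hold in every run. The same libraries crossed in the glucocorticoid-induced gene Tsc22d3, at 127 in ZT3_RUN_1 and 390.4 in ZT3_SED_1. The source of this crossing was not tested. Between times Trp53inp1 differed by 0.52 ± 0.26 in RUN and by 0.69 ± 0.26 in SED (limma adjusted p = 0.263 and 0.250). Within the runs of title numbers the time difference in RUN was 0.18, 1.52 and -0.14, so it did not keep its sign in every run. It was 0.28 without ZT3_RUN_1. When the libraries high in Cd79a were left out, the time difference was 0.65 in RUN and 0.45 in SED (limma adjusted p = 0.154 and 0.505).

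Sesn1 (ENSMUSG00000038332) encodes a stress protein that restrains mTORC1 and is a known target of p53 and FOXO factors. It ran against most of the other members in exercised mice at ZT15. Its level was 35.6 at the lowest, 40.8 at the median and 53.4 at the highest in ZT15 RUN, and 43.7, 49.9 and 68.0 in ZT15 SED. In ZT3 RUN it was 40.1, 54.3 and 97.2, and in ZT3 SED it was 41.7, 49.4 and 59.4. At ZT15, 4 of 6 exercised libraries were below every sedentary library, with a difference of -0.30 ± 0.16 (limma adjusted p = 0.430). Between times in exercised mice the difference was -0.43 ± 0.16 (limma adjusted p = 0.123). It had an adjusted p of 0.0470 with DESeq2 and of 0.0497 with limma without ZT3_RUN_5. The exercise effect at ZT15 minus that at ZT3 was -0.49 ± 0.22 (limma adjusted p = 0.583).

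Sesn1 was highest in the libraries richest in lymphocyte markers. Its value was 97.2 in ZT3_RUN_4 and 68.0 in ZT15_SED_5, the highest of their groups. Without the libraries high in Cd79a the difference after exercise at ZT15 was -0.16, that between times in exercised mice was -0.27 and the difference between exercise effects was -0.20. With lymphocyte and muscle marker scores in the fit these differences were -0.09, -0.31 and -0.17, in the same order. All of these were smaller than in the fit to all libraries without scores.

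Ulk1 (ENSMUSG00000029512), the kinase that starts autophagy under the control of AMPK and mTORC1, had differences of opposite sign at ZT15 and ZT3. It averaged 42.5 ± 8.50 in ZT15 RUN and 36.0 ± 4.32 in ZT15 SED, and 37.0 ± 8.37 in ZT3 RUN and 42.2 ± 6.63 in ZT3 SED (SD, n = 6 each). Groups overlapped at both times. The exercise difference was 0.22 ± 0.14 at ZT15 and -0.20 ± 0.14 at ZT3, and the difference between them was 0.42 ± 0.20 (limma adjusted p = 0.583), so a response that depends on time is not shown. Without single libraries the exercise difference ranged from 0.13 to 0.27 at ZT15 and between -0.28 and -0.13 at ZT3. Without the libraries high in Cd79a the difference between effects was 0.32.

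The ATG8 genes and the receptor gene Sqstm1 form the membrane and cargo side of the list. Gabarapl1 (ENSMUSG00000030161), an ATG8 gene of the GABARAP branch and a known FOXO target, was at 101 at the lowest, 135 at the median and 152 at the highest in ZT15 RUN, and at 64.5, 100.3 and 119.7 in ZT15 SED. Of the 6 exercised libraries 5 were above every sedentary library at ZT15. The difference was 0.41 ± 0.16 (limma adjusted p = 0.270), with 0.72, 0.39 and 0.12 within the runs of title numbers, and 0.32 without the libraries high in Cd79a. It was 0.20 with lymphocyte and muscle marker scores in the fit. At ZT3 it was 61.3, 120.1 and 128 in RUN and 96.3, 106 and 119 in SED, a difference of -0.06 ± 0.16 that was 0.09 without ZT3_RUN_4. The difference between the effects was 0.47 ± 0.23 (limma adjusted p = 0.583), 0.23 without the libraries high in Cd79a and 0.15 with the marker scores.

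Map1lc3a (ENSMUSG00000027602), which encodes LC3A, was at 77.5 at the lowest, 108 at the median and 139 at the highest in ZT15 RUN, and at 39.5, 76.6 and 108 in ZT3 RUN. In exercised mice 2 of 6 libraries at ZT15 lay above every library at ZT3, and the time difference was 0.55 ± 0.18 (limma adjusted p = 0.0905). It passed without ZT15_RUN_2 (limma adjusted p = 0.0430) or ZT3_RUN_6 (limma adjusted p = 0.0398). In sedentary mice it was at 66.2, 99.8 and 136 in ZT15 SED and at 73.0, 80.9 and 87.5 in ZT3 SED, with 5 of 6 ZT15 libraries above every ZT3 library. ZT15_SED_5 was below all of them. That time difference was 0.28 ± 0.18 (limma adjusted p = 0.595). Once scores of the lymphocyte and muscle markers entered the fit, the time differences were 0.44 in RUN and 0.54 in SED, and both passed (limma adjusted p = 0.0292 and 0.0158). Without the libraries high in Cd79a they were 0.38 and 0.42, and neither passed (limma adjusted p = 0.115 and 0.162).

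Map1lc3b (ENSMUSG00000031812), which encodes LC3B, averaged 128 ± 15.1 in ZT15 RUN, 115 ± 17.8 in ZT15 SED, 113 ± 18.4 in ZT3 RUN and 114 ± 15.6 in ZT3 SED (SD, n = 6 each). Sqstm1 (ENSMUSG00000015837), which encodes the cargo receptor p62, averaged 286 ± 52.3, 266 ± 47.1, 246 ± 38.4 and 255 ± 16.6 in the same groups and order. Both genes overlapped in all groups and had 0 calls. Their differences were between -0.03 and 0.18 for Map1lc3b and between -0.07 and 0.21 for Sqstm1, whose 0.21 between times in RUN was 0.11 without the libraries high in Cd79a. Map1lc3a and Sqstm1 were high together in ZT15_RUN_1 and ZT15_RUN_6, with Map1lc3a at 139 and 133 and Sqstm1 at 325 and 362. In these libraries the fast muscle myosin Myh4 was at 8995 and 22113, against 61.4 to 1139 in the other 4 of their group. In ZT15_SED_1 Map1lc3a was at 136, Sqstm1 at 313 and Myh4 at 18297. Other libraries did not share this pattern. ZT3_SED_1 had Myh4 at 8207 with Map1lc3a at 76.6 and Sqstm1 at 266, and ZT3_SED_4 had Myh4 at 6967 with Map1lc3a at 84.6 and Sqstm1 at 270. Sqstm1 was at 320 in ZT15_SED_3, where Myh4 was at 694. The brown or beige adipocyte marker Ucp1 was highest in ZT15_RUN_1 at 532, ZT15_RUN_6 at 526 and ZT15_SED_1 at 208. The next library, ZT15_SED_4, had Ucp1 at 73.8 with Map1lc3a at 98.4 and Sqstm1 at 250. Ucp1 was at 8.01 in ZT3_SED_1, 1.89 in ZT3_SED_4 and 3.23 in ZT15_SED_3. The part of muscle and of brown or beige adipocytes in these levels was not tested.

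**Figure D2:**
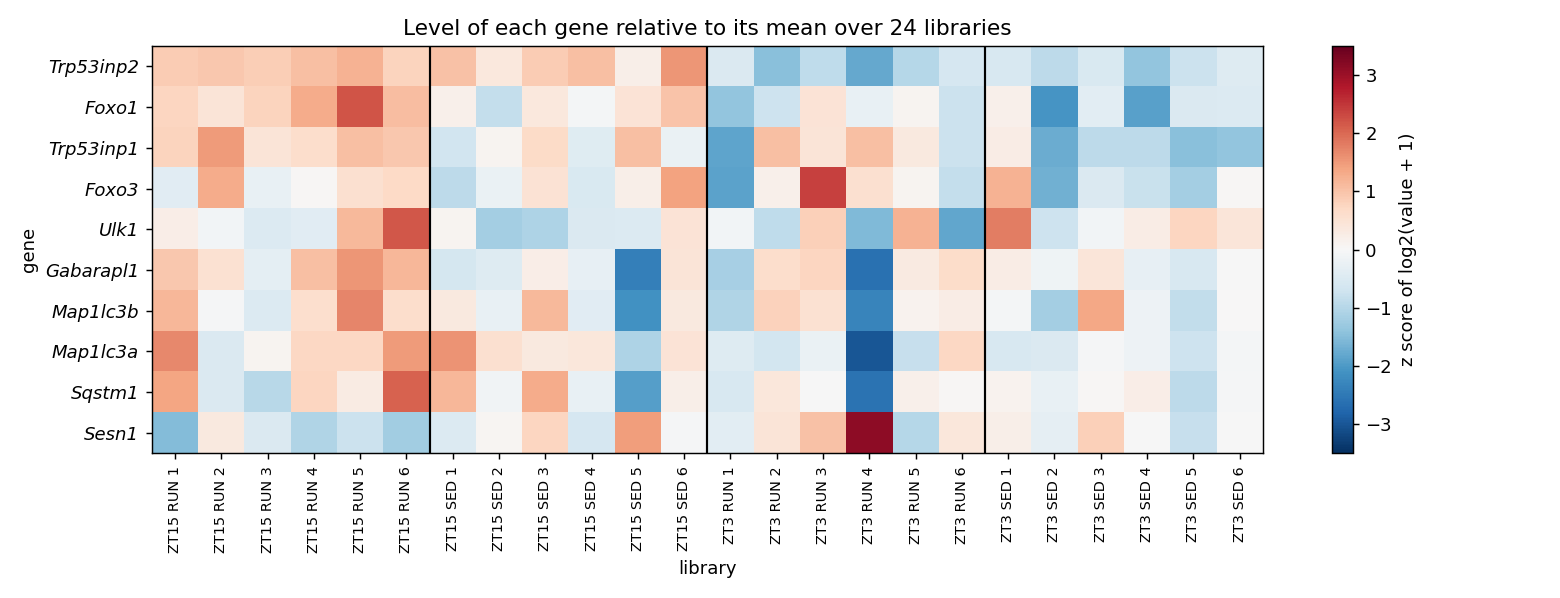
Level of each gene (y axis) in each library (x axis) as a z score of log2(value + 1) over the 24 libraries, with lines between groups. Trp53inp2 is higher in every ZT15 library than in any ZT3 library, with ZT15_SED_5 the lowest of the ZT15 libraries. ZT3_RUN_4 and ZT15_SED_5 are low in Gabarapl1, Map1lc3b, Map1lc3a and Sqstm1 and high in Sesn1.

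The members did not move as a block. Across the 24 libraries, which share their depth range and their mixture of tissues, the ATG8 genes and Sqstm1 had Pearson's r between 0.65 and 0.88 with one another, and between 0.33 and 0.80 without the libraries high in Cd79a. These correlations are a description. Map1lc3b and Gabarapl1 had a Pearson's r of 0.88 and a Spearman's rho of 0.81, and Pearson's r was 0.80 without the libraries high in Cd79a. Map1lc3a and Sqstm1 had an r of 0.83 and a rho of 0.61, and an r of 0.72 without those libraries. Among the pairs of ATG8 genes and Sqstm1, Map1lc3a with Gabarapl1 moved most, with an r of 0.65 over all libraries and of 0.33 without them. Pairs with other members moved further. Trp53inp1 with Gabarapl1 went from 0.17 to 0.70 without these libraries, and Sesn1 with Gabarapl1 from -0.59 to -0.08. Sesn1 ran opposite to Map1lc3a with an r of -0.71 and a rho of -0.45, and with an r of -0.44 without the libraries high in Cd79a. ZT3_RUN_4 was the extreme library in this pair, with 97.2 for Sesn1 and 39.5 for Map1lc3a. The paralogues Trp53inp1 and Trp53inp2 had an r of 0.29 over all libraries and of -0.53 once each group's mean was removed. With group means kept, their r was 0.40 without the libraries high in Cd79a. An r with group means removed was not computed without those libraries. Foxo1 had an r of 0.68 with each of them, and of 0.41 with Trp53inp1 and 0.34 with Trp53inp2 once group means were removed. With group means kept, and without the libraries high in Cd79a, the r of Foxo1 was 0.71 with Trp53inp1 and 0.72 with Trp53inp2.

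**Figure D3:**
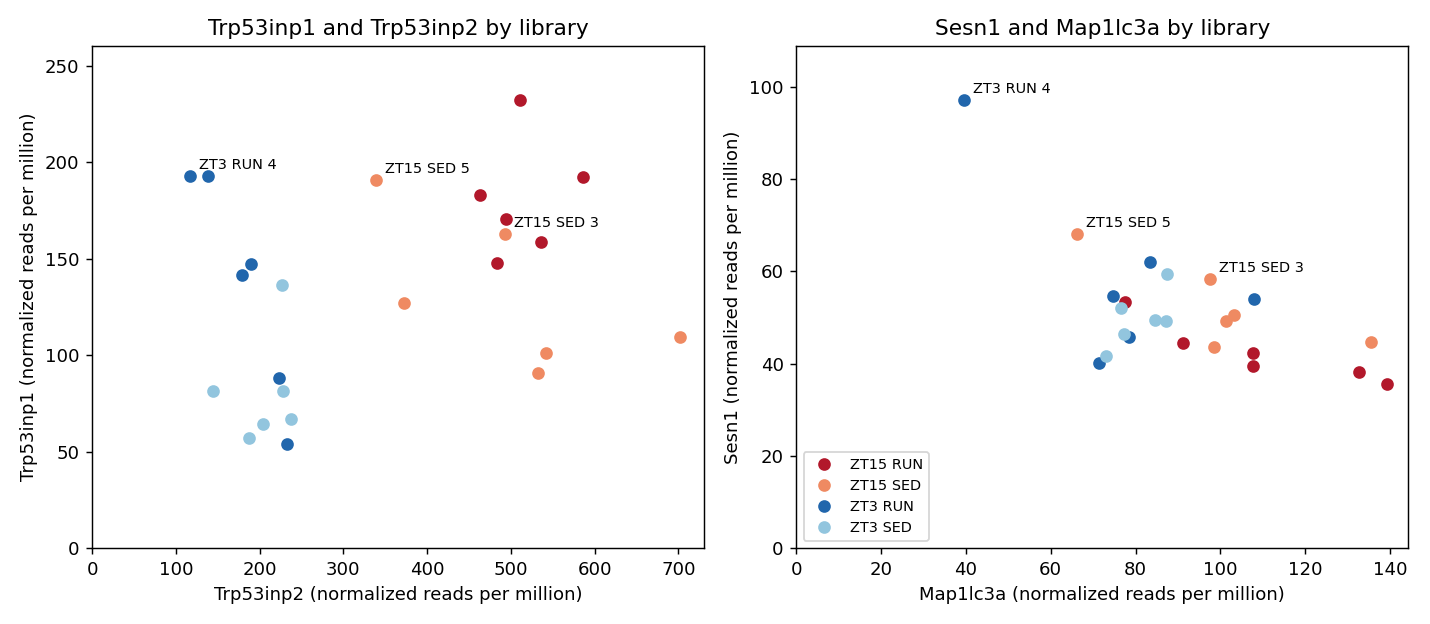
Normalized reads per M reads of Trp53inp1 against Trp53inp2 (left) and of Sesn1 against Map1lc3a (right), 1 point per library, coloured by group, with the 3 libraries high in Cd79a named. Time separates the libraries along Trp53inp2, and ZT3_RUN_4 lies apart at 97.2 for Sesn1 and 39.5 for Map1lc3a.

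Per kilobase of annotated exon (GENCODE M21), the mean level over all libraries was 78.5 for Sqstm1, 77.6 for Map1lc3a, 66.3 for Trp53inp2 and 55.1 for Gabarapl1. It was 20.4 for Trp53inp1, 15.6 for Map1lc3b, 14.4 for Foxo1, 12.8 for Sesn1, 10.4 for Foxo3 and 6.07 for Ulk1. The annotation used for counting is not given in the sources used here, so this order holds for these exon lengths only. The coefficient of variation of the level over the 24 libraries was highest for Trp53inp2 at 50.0% and lowest for Map1lc3b at 14.3%.

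Other genes of the pathway were read from 13 lists, with 107 genes besides the members. Exercise at ZT15 called 2 of the 107 as higher and 0 as lower, with 78 of 107 above 0 and a median log2 difference of 0.06. Between times in exercised mice 3 were called as higher and 0 as lower, with 76 of 107 above 0 and a median of 0.09. In the other comparisons 0 of the 107 were called. The calls came to 1.87% of the 107 after exercise at ZT15 and to 2.80% between times in exercised mice, against 0.641% and 4.19% of all genes. In these comparisons 50.7% and 48.9% of all genes were above 0.

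Atg101, a subunit of the ULK1 complex, rose after exercise at ZT15 by 0.93 ± 0.22 (limma adjusted p = 0.0418). It averaged 36.4 ± 14.6 in ZT15 RUN and 17.4 ± 2.43 in ZT15 SED, and 26.9 ± 7.03 in ZT3 RUN and 19.7 ± 4.47 in ZT3 SED (SD, n = 6 each). Irs2, the insulin receptor substrate that feeds AKT, rose in the same comparison by 1.53 ± 0.28 (limma adjusted p = 0.0169). Pdk4, which restrains pyruvate oxidation and is a known FOXO target, rose between times in exercised mice by 1.68 ± 0.34 (limma adjusted p = 0.00606), at 1091 ± 658 in ZT15 RUN against 327 ± 193 in ZT3 RUN. Mtor, the kinase of mTORC1, and Wipi2, which binds the phosphoinositide of the forming membrane, rose in that comparison by 0.36 ± 0.10 and 0.28 ± 0.08 (limma adjusted p = 0.0439 and 0.0428). Pdk4 missed the threshold with only the groups compared in the fit (1.68, limma adjusted p = 0.0710). Without the libraries high in Cd79a Pdk4 passed (1.64, limma adjusted p = 0.0152), whereas Atg101 (0.89, adjusted p = 0.110), Irs2 (1.56, adjusted p = 0.0518), Mtor (0.34, adjusted p = 0.0875) and Wipi2 (0.26, adjusted p = 0.0885) did not. Of the 24 fits that each left out 1 library, Pdk4 passed in 24, Irs2 in 22, Mtor in 11, Wipi2 in 10 and Atg101 in 7. Irs2 missed without ZT15_RUN_4 or ZT15_RUN_5.

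Within the lists, members included, FOXO factors had 4 of 4 genes above 0 after exercise at ZT15 and 2 of 4 at ZT3, p53-induced nuclear proteins 2 of 2 and 1 of 2, and sestrins 1 of 3 and 2 of 3, with 0 calls. The ULK1 complex had 5 of 5 genes above 0 after exercise at ZT15, with 1 call, and 1 of 5 at ZT3. Membrane supply genes had 7 of 7 above 0 at ZT15 and 2 of 7 at ZT3, and ATG8 genes 4 of 5 and 1 of 5, with 0 calls. Autophagy receptors had 7 of 10 at ZT15 and 4 of 10 at ZT3, lysosome and fusion genes 12 of 16 and 5 of 16, and the conjugation machinery 7 of 11 and 6 of 11, with 0 calls. The phosphatidylinositol 3-kinase complex had 4 of 8 and 6 of 8, and the insulin, mTOR and AMPK kinases 16 of 20 with 1 call and 6 of 20 with 0. FOXO targets outside autophagy had 9 of 14 and 7 of 14, and p53 targets 9 of 12 and 6 of 12, with 0 calls. At these times 50.7% and 51.8% of all genes were above 0. The 10 skeletal muscle markers were all above 0 at ZT15 and all below 0 at ZT3, and the 10 lymphocyte markers the reverse. Fibroblast markers were 6 of 6 above 0 at ZT15 and 0 of 6 at ZT3, endothelial markers 5 of 5 and 1 of 5, adipocyte markers 7 of 8 and 2 of 8, and brown or beige markers 6 of 6 and 3 of 6. Macrophage markers were 3 of 6 and 2 of 6, and Schwann cell and nerve markers 6 of 6 at both. The part of these cells in the counts was not tested.

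Among relatives of the members, Sesn2 was named after its values were seen. This sestrin, which senses leucine for mTORC1, averaged 85.0 ± 31.0 in ZT15 RUN and 35.0 ± 8.39 in ZT15 SED (SD, n = 6 each) and missed the threshold (1.21 ± 0.29, limma adjusted p = 0.0519), though it passed with edgeR (1.28, adjusted p = 0.0455) and not without the libraries high in Cd79a (1.25, limma adjusted p = 0.0943). In that comparison Sesn3 differed by -0.24 ± 0.18 and Sesn1 by the -0.30 given above. The remaining FOXO factors were Foxo4, at 41.5 ± 8.67 in ZT15 RUN and 39.5 ± 5.98 in ZT15 SED, and Foxo6, whose group means were 0.270 to 0.543.

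The genes most like 3 of the members were found by Pearson's r of log2 values over the 24 libraries, among named genes above the median level. Those nearest to Trp53inp2 were Marveld1 (0.95), Tspan4, Smarca2, Fut8 and Mturn (0.93 each). Nearest to Trp53inp1 were Dclre1b (0.90), Ddit4 (0.87), Tsc22d3 (0.86), Rbbp4 and Nfkbia (0.85 each). Nearest to Foxo1 were Hipk1 (0.90), Sidt2 (0.89), Tle3 (0.88), Map3k6 (0.87) and Ppfia1 (0.86). With Spearman's rho these values ran from 0.74, for Tsc22d3, to 0.95, for Mturn.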

How the data were processed

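Expression was measured in 24 inguinal fat libraries prepared from total RNA depleted of rRNA with a strand-keeping kit (per the labels' protocols). The submitters' processing notes list STAR, Subread 1.6.2, featureCounts and limma 3.48.3 and give no step for any of them. Genome build, annotation and strand setting were not given in the sources used here, so reads of overlapping genes cannot be told apart. The deposited table holds normalized signal per gene and library, made by the authors: 100% of values were whole multiples of 1 step per library within 0.01 of a read, with factors equal to edgeR's TMM factors. The authors' filter on low genes was not given. Recovered reads were 18.5 to 34.7 M (mega) per library.

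From these values log2(value + 1) was computed, which understates the change of low genes, and limma 3.58.1 in R 4.3.3 (lmFit, eBayes with trend) was fitted to all 4 groups and all 16233 genes, with Benjamini-Hochberg adjustment and a threshold of 0.05. The fit was tested on simulated data. Alternatives were quantile normalization, median centring, leaving out the lowest 25% of genes, a pseudocount of 0.1, no trend, only the groups compared, blocks of 8 title numbers, marker scores as covariates, leaving out the 3 libraries with Cd79a above 5 or any single library, and edgeR 4.0.16 and DESeq2 1.42.0 on recovered reads. Every member is named, and of the other pathway genes those past the threshold, up to 6 per comparison. Promoters came from RefSeq (GRCm38.p6). The members, lists and tests were chosen with earlier results of these data known. Replicate numbers only name libraries and pair none.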

Additional observations from a re-analysis of the deposited data

Results flagged for a closer look

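Of 40 sets of 6 libraries (10 genes in 4 groups), 1 held a library far from the others: Sqstm1 was at 173 in ZT3_RUN_4, against 238 in the next lowest library of its group. By chance about 1 set in 20 is marked in this way. ZT3_RUN_4 also had the highest Cd79a, at 99.2.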

How the results depend on the processing

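No paired analysis was possible because the replicate numbers follow the order of the records and the labels pair no libraries. Between times Trp53inp2 kept its direction in RUN and in SED, and its call in RUN, under each of the 11 alternatives run and without any single library. Each member had 703 reads or more in each library.

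Member counts here include Trp53inp2, also where a comparison holds the sedentary values that chose it. For exercise at ZT15, 0 members and 104 of all genes passed, and without a single library 0 to 0 members and 16 to 293 genes. Alternatives gave 22 genes with the Cd79a libraries left out and 541 genes with DESeq2. For exercise at ZT3, 0 members and 0 of all genes passed, and without a single library 0 to 0 members and 0 to 0 genes. For the difference between exercise effects, 0 members and 0 of all genes passed, and without a single library 0 to 0 members and 0 to 0 genes; alternatives gave 239 genes with DESeq2. For time in exercised mice, 2 members and 680 of all genes passed, and without a single library 1 to 3 members and 330 to 1004 genes; alternatives gave 426 genes with quantile normalization, 1027 genes with marker scores, 109 genes with only the groups compared, 1575 genes with DESeq2, 1 member with quantile normalization, 1 member with only the groups compared, 3 members with DESeq2, 3 members with marker scores. For time in sedentary mice (member counts include Trp53inp2, which was chosen on this value), 1 member and 191 of all genes passed, and without a single library 1 to 1 member and 130 to 388 genes; alternatives gave 287 genes with title number blocks, 560 genes with marker scores, 544 genes with DESeq2, 2 members with marker scores. For exercise averaged over both times, 0 members and 23 of all genes passed, and without a single library 0 to 1 member and 0 to 165 genes; alternatives gave 8 genes with quantile normalization, 15 genes without the lowest 25% of genes, 113 genes with marker scores, 1 gene with the Cd79a libraries left out, 193 genes with DESeq2.

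Of 640 log2 differences of members under alternatives, 600 kept sign and side of the threshold. Foxo1 between times in exercised mice lost its call in 2, and another 3 gained a call. The sign of 35 turned, all of them differences that had not passed, and the cause was not tested. With quantile normalization these were Foxo3 -0.00989 (exercise at ZT15), Trp53inp2 -0.0619 (exercise at ZT15), Sqstm1 -0.0229 (exercise at ZT15), Foxo3 -0.0138 (time in exercised mice), Map1lc3b -0.0128 (time in sedentary mice), Ulk1 -0.00852 (exercise averaged over both times), Sqstm1 -0.0457 (exercise averaged over both times). With median centring these were Map1lc3b -0.0163 (time in sedentary mice), Map1lc3a 0.00751 (exercise averaged over both times). With marker scores these were Trp53inp2 -0.0983 (exercise at ZT15), Map1lc3a -0.12 (exercise at ZT15), Sqstm1 -0.0287 (exercise at ZT15), Map1lc3b 0.0386 (exercise at ZT3), Gabarapl1 0.0538 (exercise at ZT3), Sqstm1 0.00354 (exercise at ZT3), Trp53inp1 0.19 (the difference between exercise effects), Map1lc3a -0.10 (the difference between exercise effects), Map1lc3b -4.307e-04 (the difference between exercise effects), Sqstm1 -0.0323 (the difference between exercise effects), Sesn1 -0.14 (time in sedentary mice), Gabarapl1 0.0543 (time in sedentary mice), Ulk1 -0.00802 (exercise averaged over both times), Sqstm1 -0.0126 (exercise averaged over both times). With the Cd79a libraries left out these were Trp53inp2 -0.0355 (exercise at ZT15), Map1lc3a -0.0204 (exercise at ZT15), Map1lc3a 0.0255 (exercise at ZT3), Map1lc3b 0.0611 (exercise at ZT3), Gabarapl1 0.0909 (exercise at ZT3), Sqstm1 0.0338 (exercise at ZT3), Trp53inp1 0.20 (the difference between exercise effects), Map1lc3a -0.0459 (the difference between exercise effects), Sesn1 -0.0722 (time in sedentary mice), Map1lc3a 0.00257 (exercise averaged over both times). With edgeR these were Map1lc3a 0.0143 (exercise averaged over both times). With DESeq2 these were Map1lc3a 0.0184 (exercise averaged over both times). Without a single library 6 of 1440 lost their call, all of them Foxo1 between times in exercised mice, and 4 gained one. The sign of 35 turned. Their ranges were Sqstm1 -0.0269 to 0.0679 (exercise averaged over both times), Map1lc3a -0.0688 to 0.0743 (exercise averaged over both times), Ulk1 -0.0351 to 0.0458 (exercise averaged over both times), Map1lc3b -0.0551 to 0.0836 (time in sedentary mice), Sqstm1 -0.0128 to 0.13 (time in sedentary mice), Trp53inp2 -0.0183 to 0.19 (exercise at ZT15), Sesn1 -0.0108 to 0.12 (time in sedentary mice), Map1lc3b -0.0712 to 0.0611 (exercise at ZT3), Gabarapl1 -0.12 to 0.0909 (exercise at ZT3), Foxo3 -0.0350 to 0.15 (time in exercised mice), Foxo3 -0.16 to 0.0298 (the difference between exercise effects), Map1lc3a -0.26 to 0.0255 (exercise at ZT3), Sqstm1 -0.10 to 0.0338 (exercise at ZT3).

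Of the genes called after exercise at ZT15, 75% were higher, against 93.1% with quantile normalization and 89.7% with median centring; between times in exercised mice 61.0% were higher, against 75.9% with median centring.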
